A study of Mus musculus with 24 samples.

Results

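Herpud1, Sel1l, Derl1 and Edem2 encode proteins of ER-associated degradation, the route by which misfolded proteins leave the endoplasmic reticulum (ER) and are destroyed. They were followed as all probe sets that the gene table of the array assigns to them, which gave 6 probe sets for 4 of the 8251 genes with a probe set of their own. Sel1l and Derl1 each had 2 probe sets, and Herpud1 and Edem2 each had 1. RNA came from primary mouse embryonic fibroblasts (MEFs) and was measured on 24 arrays in 6 groups of 4, lettered A to D. The groups were CHOP-/- cells and wild type cells, each untreated or exposed to 2 µg/ml tunicamycin, an exposure of 4 h or of 8 h. CHOP is a transcription factor encoded by Ddit3, and tunicamycin blocks the addition of N-linked sugars to proteins, so that unfolded proteins gather in the ER. Passage 3 is given for 3 untreated wild type arrays only. The labels name no group given solvent alone, no age or strain of the embryos, no design of the Ddit3 allele and no separate cultures behind the letters, so the p-values below rest on the spread among arrays, which may be technical.

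In ER-associated degradation, lectins and sugar-trimming enzymes pick out glycoproteins that fail to fold, a membrane complex built around a ubiquitin ligase passes them to the cytosol, and an ATPase pulls them out for the proteasome. Edem2 belongs to the mannosidase-like proteins that start the trimming of mannose by which such glycoproteins are marked. Sel1l is the adaptor that holds the ligase Syvn1 and binds the recognition factors, Derl1 is a rhomboid-like protein of the membrane channel, and Herpud1 is a small ubiquitin-like membrane protein that joins the ligase complex. The unfolded protein response raises many of these genes through the factors ATF6 and XBP1, which act at ER stress elements, and through ATF4 of the PERK arm, which also drives Ddit3.

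The bases before the start sites are shown so that matches to both kinds of element can be looked for in them. RefSeq windows of 250 bases on GRCm38.p6 were matched for 3 of the 4 genes, and Derl1 was not matched. Each is printed 5′ to 3′ on the strand of the gene and ends at the base before the annotated start. Capitals mark matches, on either strand, to CCAAT, to CCACG and to the ATF4 element core TGATGNAA.
Herpud1, chr8:94386179-94386428, plus strand: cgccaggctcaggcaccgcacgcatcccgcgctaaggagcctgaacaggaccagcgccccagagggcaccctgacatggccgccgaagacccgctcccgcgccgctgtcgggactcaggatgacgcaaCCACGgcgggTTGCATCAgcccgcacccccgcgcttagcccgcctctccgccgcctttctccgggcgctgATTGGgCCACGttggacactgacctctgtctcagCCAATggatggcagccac
Sel1l, chr12:91849158-91849407, minus strand: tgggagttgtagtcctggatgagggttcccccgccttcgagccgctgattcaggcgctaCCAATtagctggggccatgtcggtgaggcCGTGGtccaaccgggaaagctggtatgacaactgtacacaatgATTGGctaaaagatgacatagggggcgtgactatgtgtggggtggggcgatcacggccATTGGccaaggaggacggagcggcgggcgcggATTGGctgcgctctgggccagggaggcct
Edem2, chr2:155729476-155729725, minus strand: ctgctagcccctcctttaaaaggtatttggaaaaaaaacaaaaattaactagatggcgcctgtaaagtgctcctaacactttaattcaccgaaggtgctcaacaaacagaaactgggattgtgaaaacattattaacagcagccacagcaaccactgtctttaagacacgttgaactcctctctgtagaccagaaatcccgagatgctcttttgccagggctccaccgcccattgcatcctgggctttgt

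Herpud1 held 2 CCAAT and 2 CCACG matches. One of each lay side by side as ATTGGGCCACG, from base -52 to base -42, which is the form ATTGGNCCACG known as ERSE-II. That form was found in 0.0304% of 32851 windows of the same length. TTGCATCA, the ATF4 element core on the other strand, lay from base -112 to base -105 of Herpud1, and 3.45% of windows held such a core. Sel1l held 4 CCAAT matches and 1 CCACG match with no ERSE-II, and Edem2 held none of these letters in the window. CCAAT and CCACG on their own were common, in 33.8% and 28.3% of windows. No window of the 3 genes held the full ER stress element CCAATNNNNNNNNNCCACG, found in 0.113% of windows, or the core TGACGTGG, found in 0.563%. CCAAT and CCACG are parts of ERSE-II and of the full element, so these matches overlap. A match is a description of letters and not a measured site.

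**Figure D1:**
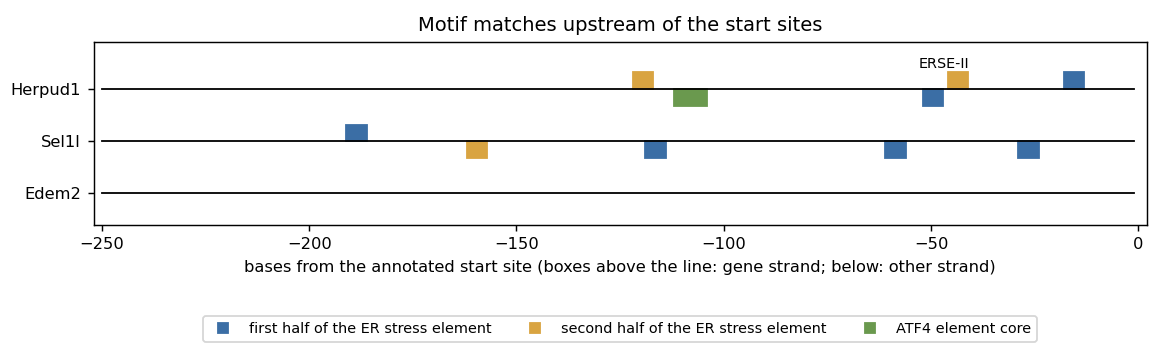
Motif matches in the 250 bases before the annotated start sites of Herpud1, Sel1l and Edem2. The x axis gives bases from the start, boxes above each line are on the gene strand and boxes below it on the other strand; Herpud1 holds the ERSE-II from base -52 to base -42 and the ATF4 core, and Edem2 has no box.

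The deposited values were linear probe set signals with a common trimmed mean of 250.1 to 250.2 per array. The signal of Ddit3 was 14.7 ± 12.0, 31.6 ± 11.0 and 20.5 ± 14.4 in untreated, 4 h and 8 h CHOP-/- cells, against 299.6 ± 97.4, 3652 ± 722 and 4383 ± 524 in wild type cells (mean ± SD, n = 4 each), as the labels have it. Of 13 fibroblast markers on the array, 12 were past the filter on low values, with a summed signal of 21176 to 36711 per array. Leukocyte markers set 6 arrays apart. The 7 markers summed to 417.5 to 1388 on the 12 CHOP-/- arrays, to 1929 to 3627 on the A and B arrays of wild type cells and to 460.9 to 816.5 on the wild type C and D arrays. Lyz2, a lysozyme of macrophages, had signals of 32.7 to 278.3 on CHOP-/- arrays, 633.5 to 1563 on wild type A and B arrays and 76.7 to 167.7 on wild type C and D arrays. Ptprc, which defines leukocytes, had signals of 0.70 to 16.4, 12.0 to 32.9 and 1.2 to 7.0 on the same sets of arrays. Only wild type array B at 4 h, with 32.9, exceeded the filter signal of 28.5 for Ptprc. Calls that ended without those 6 arrays are given below with both values. In RNA from a whole culture, fewer cells of a type and less RNA per cell cannot be told apart.

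Tunicamycin raised all 4 genes by 8 h in both genotypes. Herpud1 had nearly all of its rise by 4 h, whereas Sel1l, Derl1 and Edem2 were higher at 8 h than at 4 h on the probe set of highest mean signal. On the second Derl1 probe set that later step was not called. Sel1l was called lower in CHOP-/- cells than in wild type cells after tunicamycin on probe set 92870_at, and not on 92871_at. That call was lost without wild type arrays A and B. No difference between the genotypes in the response of the 4 genes to tunicamycin was called. That test called few genes of any kind, and at 4 h it did not call Ddit3, so smaller differences could be missed. Changes were tested with limma on log2(signal + 5.7), and a gene was called where its p, adjusted by the Benjamini-Hochberg method over all 5665 genes tested, was under 0.05. The representative probe set of each gene, the one with the highest mean signal, was past the filter, as were both second probe sets.

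**Figure D2:**
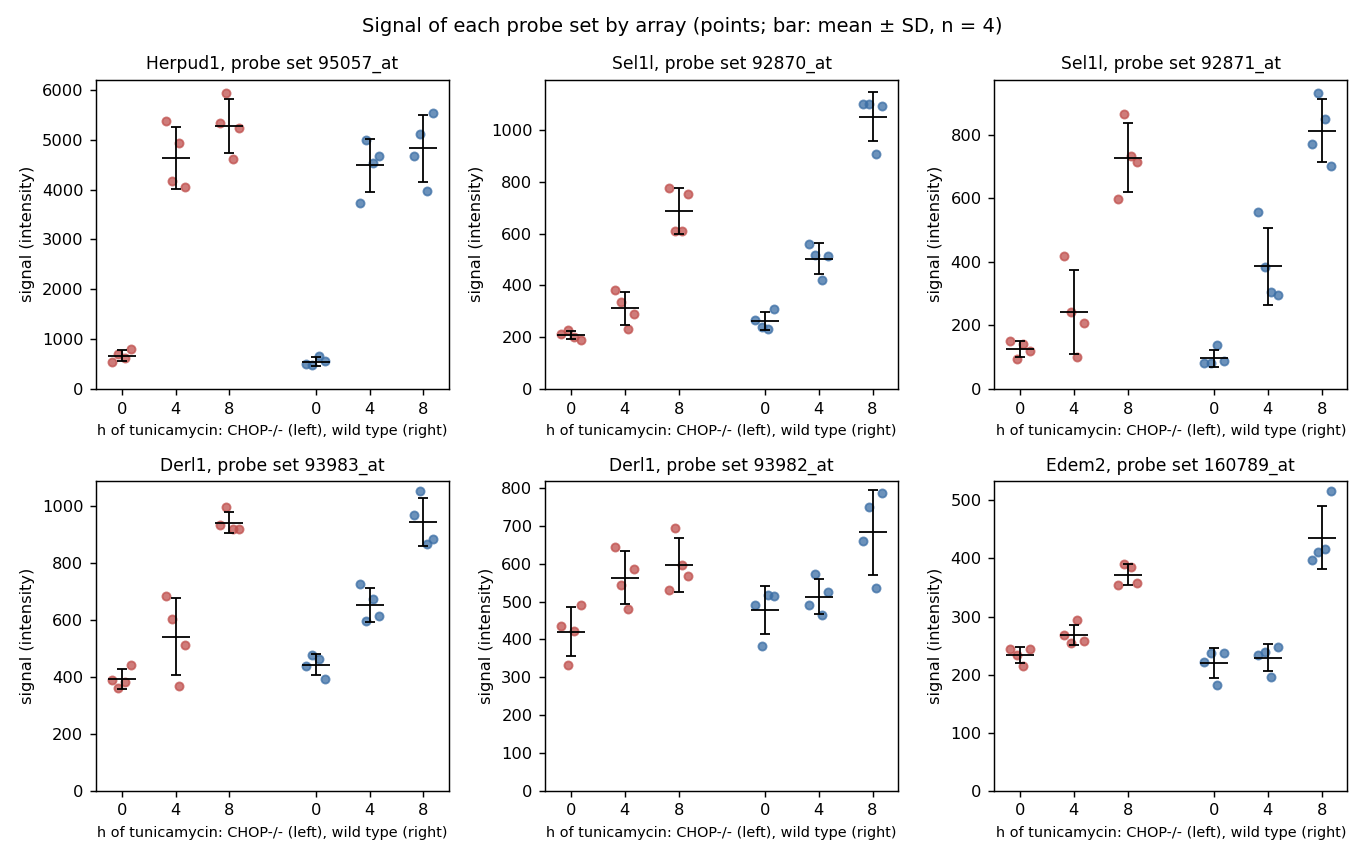
Signal of the 6 probe sets on each of the 24 arrays. The y axis is the deposited linear signal and starts at 0, the x axis gives hours of tunicamycin with 0 for untreated cells, points are arrays, and bars are the mean ± SD of 4 arrays. Herpud1 is already high at 4 h, while Edem2 in wild type cells lies at 195.3 to 247.4 at 4 h and at 397.3 to 516.0 at 8 h.

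Of the membrane components, Herpud1 had the largest log2 changes from untreated cells. On arrays A to D its signals in CHOP-/- cells were 545.2, 707.8, 630.6 and 796.0 untreated, 5367.2, 4171.3, 4941.7 and 4060.1 at 4 h, and 5334.1, 5930.7, 4610.8 and 5232.6 at 8 h. In wild type cells they were 493.6, 474.1, 670.2 and 564.8 untreated, 3738.9, 5003.9, 4536.1 and 4667.0 at 4 h, and 4680.7, 5110.8, 3976.0 and 5532.2 at 8 h. Every treated array lay above every untreated array of its genotype, while the 4 h and 8 h arrays overlapped. On the log2 scale Herpud1 rose in CHOP-/- cells by 2.77 at 4 h and by 2.99 at 8 h (SE 0.107), with adjusted p of 6.49e-15 and 1.17e-15. The rise in wild type cells was 3.03 at 4 h and 3.09 at 8 h, with adjusted p of 9e-16 and 5.67e-16. These are fold changes at 8 h of 7.95 in CHOP-/- cells and 8.51 in wild type cells. Herpud1 ranked 1 of all genes tested, by p, in each of these comparisons. Between 8 h and 4 h the log2 difference was 0.22 in CHOP-/- cells (adjusted p = 0.257) and 0.06 in wild type cells (adjusted p = 0.884). Herpud1 thus passed the test against untreated cells at both times and did not pass it between the times.

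Sel1l rose later. Its representative probe set, 92870_at, had signals on arrays A to D of 212.5, 226.6, 202.6 and 188.2 in untreated CHOP-/- cells, 383.4, 336.2, 232.7 and 291.0 at 4 h, and 775.1, 611.2, 608.4 and 753.7 at 8 h. In wild type cells the signals were 264.5, 240.4, 231.6 and 309.5 untreated, 561.2, 517.2, 419.2 and 512.1 at 4 h, and 1100.5, 1100.6, 908.2 and 1094.0 at 8 h. No array of one time overlapped those of another within a genotype, and array C of CHOP-/- cells at 4 h lay just above the untreated range. Sel1l rose in CHOP-/- cells by 0.57 at 4 h (SE 0.139, adjusted p = 0.0375) and by 1.71 at 8 h (adjusted p = 1.23e-08). The change in wild type cells was 0.90 at 4 h (adjusted p = 0.000382) and 1.96 at 8 h (adjusted p = 7.55e-10). From 4 h to 8 h Sel1l rose by a further 1.13 in CHOP-/- cells (adjusted p = 3.49e-05) and 1.06 in wild type cells (adjusted p = 6.02e-05). The 4 h call in CHOP-/- cells was the weakest of these, and it ended in 11 of 19 other settings, among them the removal of untreated CHOP-/- array A, C or D or of 4 h CHOP-/- array A, B or D (adjusted p up to 0.283). The wild type call at 4 h ended where wild type arrays A and B were left out, with a log2 change of 0.77 and an adjusted p of 0.328.

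The second Sel1l probe set, 92871_at, had a lower signal and more spread. Its signals in CHOP-/- cells were 151.1, 92.9, 141.0 and 119.5 untreated, 419.2, 243.6, 99.6 and 207.4 at 4 h, and 597.4, 863.5, 733.1 and 714.4 at 8 h. In wild type cells they were 80.7, 80.3, 137.6 and 86.8 untreated, 555.2, 385.2, 305.7 and 295.7 at 4 h, and 769.8, 929.5, 848.3 and 701.3 at 8 h. CHOP-/- array C at 4 h lay within the untreated range on this probe set. In a fit of all 12422 probe sets without a filter, 92871_at rose by 2.49 at 8 h in CHOP-/- cells (adjusted p = 2.98e-06) and by 3.02 in wild type cells (adjusted p = 1.44e-07). At 4 h its log2 change was 0.79 in CHOP-/- cells (adjusted p = 0.307), against a called rise of 1.93 in wild type cells (adjusted p = 0.000358). Between 4 h and 8 h it rose by 1.71 in CHOP-/- cells (adjusted p = 0.00143) and 1.09 in wild type cells (adjusted p = 0.048). Without wild type arrays A and B, in the same fit, 92871_at kept its wild type call at 8 h (2.78, adjusted p = 0.00178) and lost those at 4 h (1.47, adjusted p = 0.409) and from 4 h to 8 h (1.31, adjusted p = 0.302). In that fit the step of 92870_at from 4 h to 8 h in wild type cells was not called either (1.07, adjusted p = 0.0608). Both Sel1l probe sets were called higher at 8 h than untreated in each genotype, with and without those arrays.

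Derl1, on 93983_at, rose by about as much in both genotypes at 8 h. Signals in CHOP-/- cells on arrays A to D were 391.0, 359.9, 382.0 and 442.5 untreated, 684.1, 602.8, 368.3 and 510.8 at 4 h, and 935.9, 998.2, 920.5 and 919.1 at 8 h. Wild type cells had 439.6, 476.1, 462.0 and 392.1 untreated, 726.9, 596.6, 675.4 and 615.6 at 4 h, and 970.6, 1053.2, 869.0 and 886.8 at 8 h. Only the 4 h and untreated CHOP-/- arrays overlapped within a genotype, through array C, which was also low for Sel1l. At 8 h Derl1 rose by 1.24 in CHOP-/- cells (SE 0.136, adjusted p = 8.96e-07) and by 1.06 in wild type cells (adjusted p = 6.31e-06). Its change at 4 h was 0.44 in CHOP-/- cells (adjusted p = 0.131) and 0.54 in wild type cells (adjusted p = 0.0353). From 4 h to 8 h Derl1 rose by 0.80 in CHOP-/- cells (adjusted p = 0.00101) and by 0.52 in wild type cells (adjusted p = 0.0299). The wild type calls at 4 h and between 4 h and 8 h ended in 9 and 8 of 20 other settings, 6 of them in each case the removal of 1 array. For 4 h these were untreated or 4 h wild type array A, C or D, and for 8 h against 4 h they were 4 h array B, C or D or 8 h array A, B or D.

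The second Derl1 probe set, 93982_at, moved less. CHOP-/- cells had 435.6, 333.1, 421.5 and 491.4 untreated, 644.9, 542.7, 479.9 and 584.9 at 4 h, and 529.5, 694.2, 595.7 and 567.5 at 8 h. Wild type cells had 491.0, 382.9, 518.1 and 515.9 untreated, 491.0, 572.4, 463.6 and 525.7 at 4 h, and 659.9, 749.5, 534.8 and 786.0 at 8 h. The 4 h and 8 h arrays overlapped in both genotypes. In the fit of every probe set it rose at 8 h by 0.51 in CHOP-/- cells (adjusted p = 0.0253) and 0.48 in wild type cells (adjusted p = 0.0308). Its changes at 4 h were 0.45 in CHOP-/- cells (adjusted p = 0.196) and 0.08 in wild type cells (adjusted p = 0.982). Between 4 h and 8 h they were 0.07 in CHOP-/- cells (adjusted p = 0.899) and 0.40 in wild type cells (adjusted p = 0.193). The later step that 93983_at showed was therefore not called on 93982_at. The 8 h change of 93982_at in wild type cells was 0.29 without wild type arrays A and B and was not called (adjusted p = 0.637).

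Edem2, of the recognition step, was called higher at 8 h and not at 4 h in either genotype. Its signals in CHOP-/- cells were 244.2, 233.8, 214.3 and 243.3 untreated, 268.2, 254.0, 293.6 and 257.6 at 4 h, and 354.9, 391.3, 384.9 and 357.4 at 8 h. In wild type cells they were 221.8, 236.7, 182.7 and 236.6 untreated, 234.2, 239.3, 195.3 and 247.4 at 4 h, and 397.3, 411.8, 417.1 and 516.0 at 8 h. All CHOP-/- arrays at 4 h lay above the untreated CHOP-/- arrays by a small step. The wild type arrays at 4 h overlapped the untreated ones, with B and D above the highest untreated array, and in these deposited signals each lay slightly above the untreated array of its letter. The log2 change at 4 h was 0.22 in CHOP-/- cells (SE 0.116, adjusted p = 0.494) and 0.01 in wild type cells (adjusted p = 0.999, and 0.986 with the letter as a replicate block among wild type groups). At 8 h Edem2 rose by 0.66 in CHOP-/- cells (adjusted p = 0.000382) and by 0.93 in wild type cells (adjusted p = 4.66e-06). From 4 h to 8 h it rose by 0.44 in CHOP-/- cells (adjusted p = 0.0264) and 0.92 in wild type cells (adjusted p = 4.3e-05). The CHOP-/- call between 4 h and 8 h ended in 7 of 19 other settings, 5 of them the removal of 1 array (4 h array B or D, or 8 h array B, C or D), with an adjusted p up to 0.0983.

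Of the 4 genes, 2 were called higher at 4 h in CHOP-/- cells, where 0.971% of all genes were, and 3 in wild type cells, where 1.8% were. At 8 h all 4 were called higher in both genotypes, against 7.34% of genes in CHOP-/- cells and 9.69% in wild type cells. Between 8 h and 4 h 3 were called higher in each genotype, against 3.44% of genes in CHOP-/- cells and 2.1% in wild type cells. In the fit of every probe set the called shares were lower. There the share called higher in CHOP-/- cells was 0.37% at 4 h, 3.66% at 8 h and 1.39% between 8 h and 4 h, against 0.829%, 4.91% and 0.91% in wild type cells. The members were chosen with earlier results of these arrays known, so these counts are a description.

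**Figure D3:**
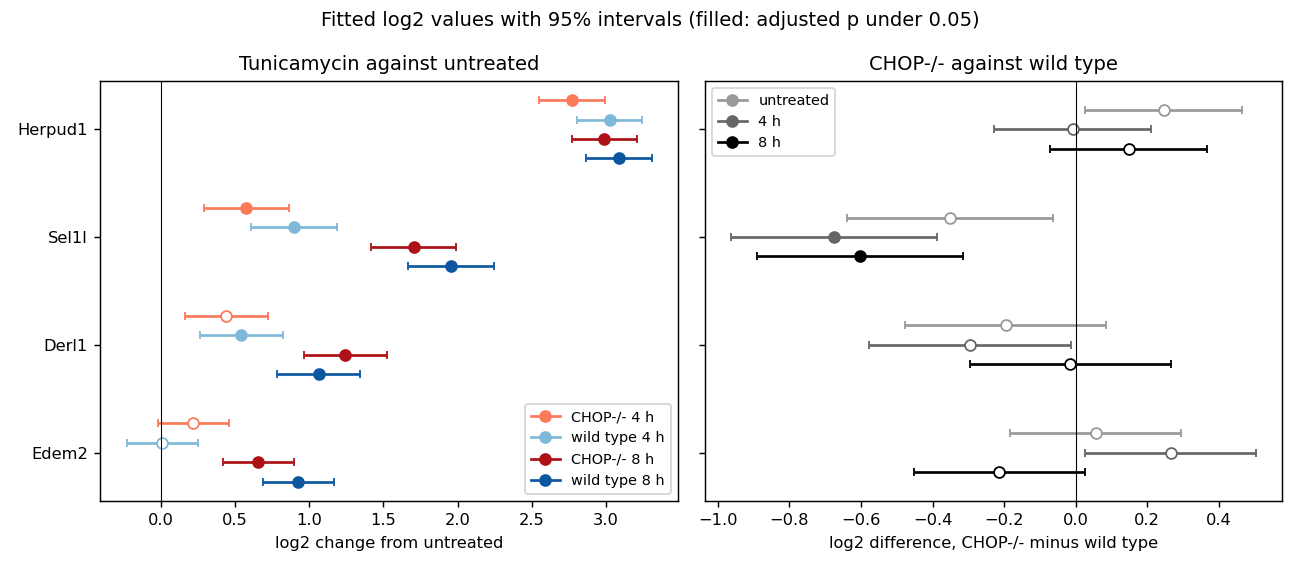
Fitted log2 changes of the representative probe sets with 95% intervals; filled points passed an adjusted p under 0.05. On the left, tunicamycin against untreated cells at 4 h and 8 h in CHOP-/- and wild type cells; on the right, CHOP-/- minus wild type cells untreated, at 4 h and at 8 h, where the filled points are those of Sel1l at 4 h and 8 h.

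Differences in timing from Herpud1 were called for Sel1l in both genotypes, for Derl1 in CHOP-/- cells and for Edem2 in wild type cells. In CHOP-/- cells the change at 4 h was 92.7% of the change at 8 h for Herpud1, 33.7% for Sel1l, 35.5% for Derl1 and 32.8% for Edem2. In wild type cells these shares were 97.98% for Herpud1, 45.9% for Sel1l, 50.9% for Derl1 and 0.702% for Edem2. The wild type change of Edem2 at 4 h was 0.01 (SE 0.116), against 0.93 at 8 h. Its share is thus a point estimate and not an upper limit. All these shares are of the representative probe sets. On the second Derl1 probe set, 93982_at, the CHOP-/- change was 0.45 at 4 h and 0.51 at 8 h. Its step from 4 h to 8 h there was 0.07, smaller than the 0.22 of Herpud1. In wild type cells 93982_at changed by 0.08 at 4 h and 0.48 at 8 h. The 4 h and 8 h changes use the same untreated arrays, so the shares carry no test. The difference in timing was tested on the step from 4 h to 8 h instead. For that test the log2 value of Herpud1 was subtracted from every gene on the same array. The step of Sel1l exceeded that of Herpud1 by 0.91 in CHOP-/- cells (SE 0.164, adjusted p = 0.00242) and by 0.996 in wild type cells (adjusted p = 0.00128). For Edem2 the excess was 0.22 in CHOP-/- cells (SE 0.163, adjusted p = 0.390) and 0.86 in wild type cells (adjusted p = 0.00377). For Derl1 it was 0.58 in CHOP-/- cells (SE 0.158, adjusted p = 0.0318) and 0.46 in wild type cells (adjusted p = 0.175). The second probe sets of Sel1l and Derl1 were not put through this test. Hspa5, the chaperone BiP, did not pass in either genotype, with excesses of 0.14 (adjusted p = 0.504) and 0.12 (adjusted p = 0.867) in CHOP-/- and wild type cells. Over the 5664 other genes, 0.812% were called to exceed Herpud1 by this test in CHOP-/- cells and 0.512% in wild type cells.

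Some of these timing calls were fragile. The Derl1 call in CHOP-/- cells ended in 8 of 18 other settings, 6 of them the removal of 4 h CHOP-/- array C or D or of any 8 h CHOP-/- array (adjusted p up to 0.157). Without wild type arrays A and B the wild type excess was 0.98 for Sel1l (adjusted p = 0.173) and 0.93 for Edem2 (adjusted p = 0.133), about as large but no longer called with 2 arrays per wild type group. The part of the leukocyte signal in them was not tested.

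**Figure D4:**
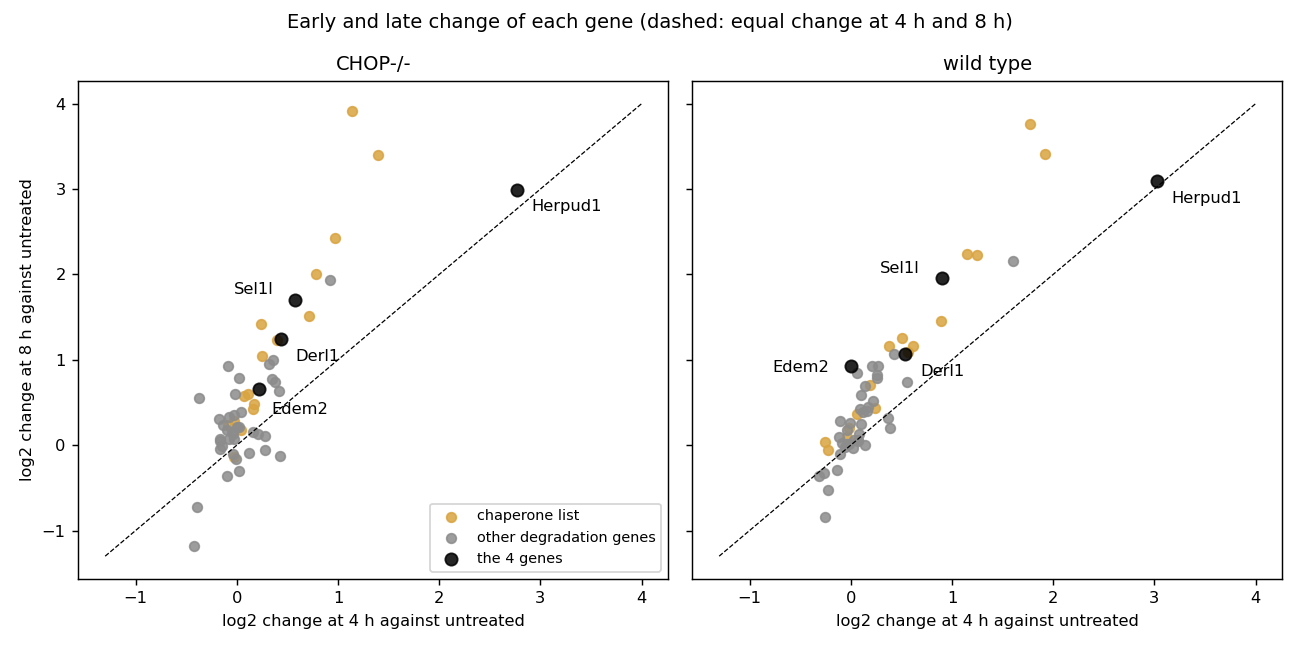
Log2 change at 4 h (x axis) against log2 change at 8 h (y axis), both relative to untreated cells, in CHOP-/- cells (left) and wild type cells (right). Black points are the 4 genes, grey points other degradation genes and yellow points ER chaperones and folding enzymes; both axes share the untreated arrays. Herpud1 lies close to the dashed line of equal change, 0.22 above it in CHOP-/- cells and 0.06 in wild type cells, and Edem2 in wild type cells lies near 0 on the x axis and at 0.93 on the y axis.

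The comparison of genotypes asked whether the level of these genes differed without CHOP. Sel1l was lower in CHOP-/- cells after tunicamycin. On 92870_at the signals in CHOP-/- cells averaged 207.5 ± 16.2 untreated, 310.8 ± 64.3 at 4 h and 687.1 ± 89.7 at 8 h, against 261.5 ± 34.9, 502.4 ± 59.7 and 1051 ± 95.1 in wild type cells (SD, n = 4 each). In these deposited signals all CHOP-/- arrays lay below all wild type arrays at each of the 3 times, by a narrow gap in untreated cells. After normalization that gap closed, with a log2 value of 7.92 on untreated CHOP-/- array B and on untreated wild type array C. How many of all genes had arrays that did not overlap was not counted, here or for the other genes. The log2 difference was -0.35 in untreated cells (SE 0.139, adjusted p = 0.398), -0.68 at 4 h (adjusted p = 0.00797) and -0.60 at 8 h (adjusted p = 0.0124). The last 2 are fold differences of 0.626 and 0.659. On the second probe set, 92871_at, the arrays of the genotypes overlapped at each time. Its differences were 0.36 untreated, -0.78 at 4 h and -0.17 at 8 h, none of them called (adjusted p = 0.833, 0.229 and 0.897), with a 95% interval at 8 h of -0.75 to 0.41. The lower level of Sel1l was thus called on 1 of its 2 probe sets.

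The Sel1l difference also depended on which arrays entered. Without wild type arrays A and B, which had the highest leukocyte marker sums, it was -0.59 at 4 h (adjusted p = 0.215) and -0.52 at 8 h (adjusted p = 0.196). With only the 2 groups compared in the fit, the 4 h call ended (adjusted p = 0.109), and the 8 h call ended without CHOP-/- array B or C at 8 h (adjusted p up to 0.0512). Markers on other lists were called different between the genotypes at 8 h too, where 4.17% of all genes were. Of 12 fibroblast markers past the filter, 1 was called higher and 1 lower in CHOP-/- cells. Of 7 neural markers 3 were past the filter and 2 were called higher in CHOP-/- cells, with summed signals of 3649 to 4502 in CHOP-/- cells and 2379 to 3549 in wild type cells. Of those past the filter, Tubb3 and Ncam1 averaged 1986 and 1180 in CHOP-/- cells, against 1190 and 708.8 in wild type cells. Nes went the other way, with 875.1 in CHOP-/- cells against 1059 in wild type cells. The neuronal markers Syp and Snap25 had no signal over 9.0 in either group. Map2 and Gfap had highest signals of 39.6 and 34 in wild type cells, over the filter signal of 28.5. Neither exceeded that filter signal in CHOP-/- cells. Of 6 endothelial markers 1, Flt1, was past the filter and called higher in CHOP-/- cells, with sums of 206.3 to 320.5 in CHOP-/- cells and 122.7 to 163.2 in wild type cells. The defining marker Cdh5 had no signal over 7.1 in either group. The part of these lists and of the leukocyte list in the Sel1l difference was not tested.

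Herpud1, Derl1 and Edem2 were not called different between the genotypes at any time. For Herpud1 the log2 difference was 0.25 untreated (95% interval 0.03 to 0.47, adjusted p = 0.473), -0.01 at 4 h (-0.23 to 0.21, adjusted p = 0.981) and 0.15 at 8 h (-0.07 to 0.37, adjusted p = 0.557). That of Derl1 was -0.20 untreated (-0.48 to 0.09, adjusted p = 0.721), -0.30 at 4 h (-0.58 to -0.01, adjusted p = 0.298) and -0.02 at 8 h (-0.30 to 0.27, adjusted p = 0.978). Edem2 differed by 0.06 untreated (-0.18 to 0.30, adjusted p = 0.932), 0.27 at 4 h (0.03 to 0.50, adjusted p = 0.265) and -0.21 at 8 h (-0.45 to 0.03, adjusted p = 0.376). Its CHOP-/- arrays all lay above the wild type arrays at 4 h and all below them at 8 h. Neither difference was called, and the share of all genes with arrays so separated was not counted. Between the genotypes, 0.989% of genes were called in either direction untreated, 2.44% at 4 h and 4.17% at 8 h, and 0.467%, 1.16% and 2.02% of all probe sets at the same times. No member was called in untreated cells by limma, although Herpud1 and Sel1l had an unadjusted p under 0.05.

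The response difference subtracts the wild type change from the CHOP-/- change. For Herpud1 it was -0.25 at 4 h (95% interval -0.57 to 0.06) and -0.10 at 8 h (-0.41 to 0.21). Sel1l had -0.32 at 4 h (-0.73 to 0.08) and -0.25 at 8 h (-0.66 to 0.16) on 92870_at. On 92871_at, in the fit of every probe set, it was -1.14 at 4 h (-1.97 to -0.32, unadjusted p = 0.00842, adjusted p = 0.996) and -0.53 at 8 h (-1.35 to 0.29). Derl1 had -0.10 at 4 h (-0.50 to 0.30) and 0.18 at 8 h (-0.22 to 0.58). For Edem2 it was 0.21 at 4 h (-0.13 to 0.55) and -0.27 at 8 h (-0.61 to 0.07). None was called, with adjusted p of 0.996 at 4 h and 0.9999 at 8 h. For the step from 4 h to 8 h, Edem2 had the largest difference of the 4, -0.48 (-0.82 to -0.14, unadjusted p = 0.00756, adjusted p = 0.99999). Of the 5665 genes, limma called 0% at 4 h, 0.0353% (2 genes) at 8 h and 0% for the step from 4 h to 8 h, with an unadjusted p under 0.05 for 227, 261 and 246 genes. Ddit3 had a response difference of -2.68 at 4 h, which was not called (adjusted p = 0.0938), and of -3.43 at 8 h (adjusted p = 0.00255).

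The other genes of the pathway were taken from 3 lists that hold 66 genes, of which 39 had a probe set of their own and 38 were tested. At 8 h in CHOP-/- cells 9 of the 38 were called higher and 1 lower, where 7.34% of all genes were called higher. In wild type cells 12 were called higher and 0 lower, where 9.69% of all genes were called higher. The median log2 change of the 38 genes at 8 h was 0.16 in CHOP-/- cells and 0.22 in wild type cells. Over all genes tested it was -0.01 and -0.02. At 4 h 1 of the 38 was called higher in CHOP-/- cells and 2 in wild type cells, beside 0.971% and 1.8% of all genes. Between 8 h and 4 h the counts were 6 in CHOP-/- cells and 2 in wild type cells, beside 3.44% and 2.1% of all genes. The counts at 4 h and the wild type count between 8 h and 4 h are not read as a result about the lists. That wild type count was 11 with the array letter as a replicate block among wild type groups. Without wild type arrays A and B the wild type counts were 0 at 4 h, 5 at 8 h and 0 between them.

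Genes of substrate recognition, the step of Edem2, held most of the calls at 8 h. Of 10 tested, 5 were called higher and 1 lower in CHOP-/- cells, and 7 higher in wild type cells. Of all genes, 7.34% and 9.69% were called higher there. Dnajb9, a co-chaperone of BiP, rose by 1.93 in CHOP-/- cells (adjusted p = 1.45e-06) and by 2.16 in wild type cells (adjusted p = 2.25e-07). It was also called at 4 h, with rises of 0.92 in CHOP-/- cells (adjusted p = 0.0371) and 1.60 in wild type cells (adjusted p = 6.61e-05). Hspa5 rose by 0.74 at 8 h in both genotypes. Edem1 and Edem3, of the same family as Edem2, rose by 0.77 and 0.92 in CHOP-/- cells and by 1.06 and 0.85 in wild type cells. Man1b1, an ER mannosidase, rose by 0.60 in CHOP-/- cells and 0.52 in wild type cells. Man1a, a mannosidase associated with the Golgi, fell by 1.18 in CHOP-/- cells (adjusted p = 0.00942), beside -0.84 in wild type cells (adjusted p = 0.0586). Os9, a lectin that binds Sel1l, was not called at 8 h, with 0.79 in wild type cells (adjusted p = 0.0975).

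Among the membrane ligase and channel genes, the step of Sel1l, Derl1 and Herpud1, 4 of 13 were called higher at 8 h in CHOP-/- cells and 3 in wild type cells. The same shares of all genes, 7.34% and 9.69%, stand beside these counts. Derl2, the closest relative of Derl1 among those tested, rose by 0.95 in CHOP-/- cells (SE 0.187, adjusted p = 0.00112) and 0.82 in wild type cells (adjusted p = 0.0034). Selenok, a selenoprotein of the derlin complexes, rose by 0.998 in CHOP-/- cells and by 0.92 in wild type cells. The ligase Syvn1, the lectin Erlec1, Derl3 and Nploc4 were not analysed here.

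Of 15 genes of extraction and shuttling tested, 0 were called at 8 h in CHOP-/- cells (1 with an unadjusted p under 0.05) and 2 were called higher in wild type cells. Beside the 7.34% and 9.69% of all genes called higher, these counts are not read as a result about the list. Vcp, the ATPase that pulls substrates from the membrane, rose by 0.45 in wild type cells (adjusted p = 0.00513), beside 0.21 in CHOP-/- cells (adjusted p = 0.213). Its cofactor Ufd1 rose by 0.70 in wild type cells (adjusted p = 0.0291), beside 0.35 in CHOP-/- cells (adjusted p = 0.324). No response difference of these genes was called. Vcp had signals in CHOP-/- cells of 1589 to 2598 untreated, 2037 to 2466 at 4 h and 2347 to 2806 at 8 h, against 2637 to 2976, 2741 to 3512 and 3411 to 4432 in wild type cells. The arrays did not overlap at any time, a separation that was not counted over all genes. The log2 difference of Vcp was -0.34 untreated (adjusted p = 0.188), -0.49 at 4 h (SE 0.107, adjusted p = 0.0121) and -0.58 at 8 h (adjusted p = 0.00195). Rad23b, a shuttle to the proteasome, was lower by the same test at 4 h, with -0.56 (adjusted p = 0.0264). Vcp and Rad23b were the only 2 of the 38 genes called between the genotypes at 4 h and Vcp the only one at 8 h, and in untreated cells limma called 0, with 3 at an unadjusted p under 0.05. With 2.44% and 4.17% of all genes called between genotypes at those times, these counts are not read as a result about the list. With wild type arrays A and B left out the 4 h count was 0, and with the letter as a replicate block the 8 h count was 2.

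**Figure D5:**
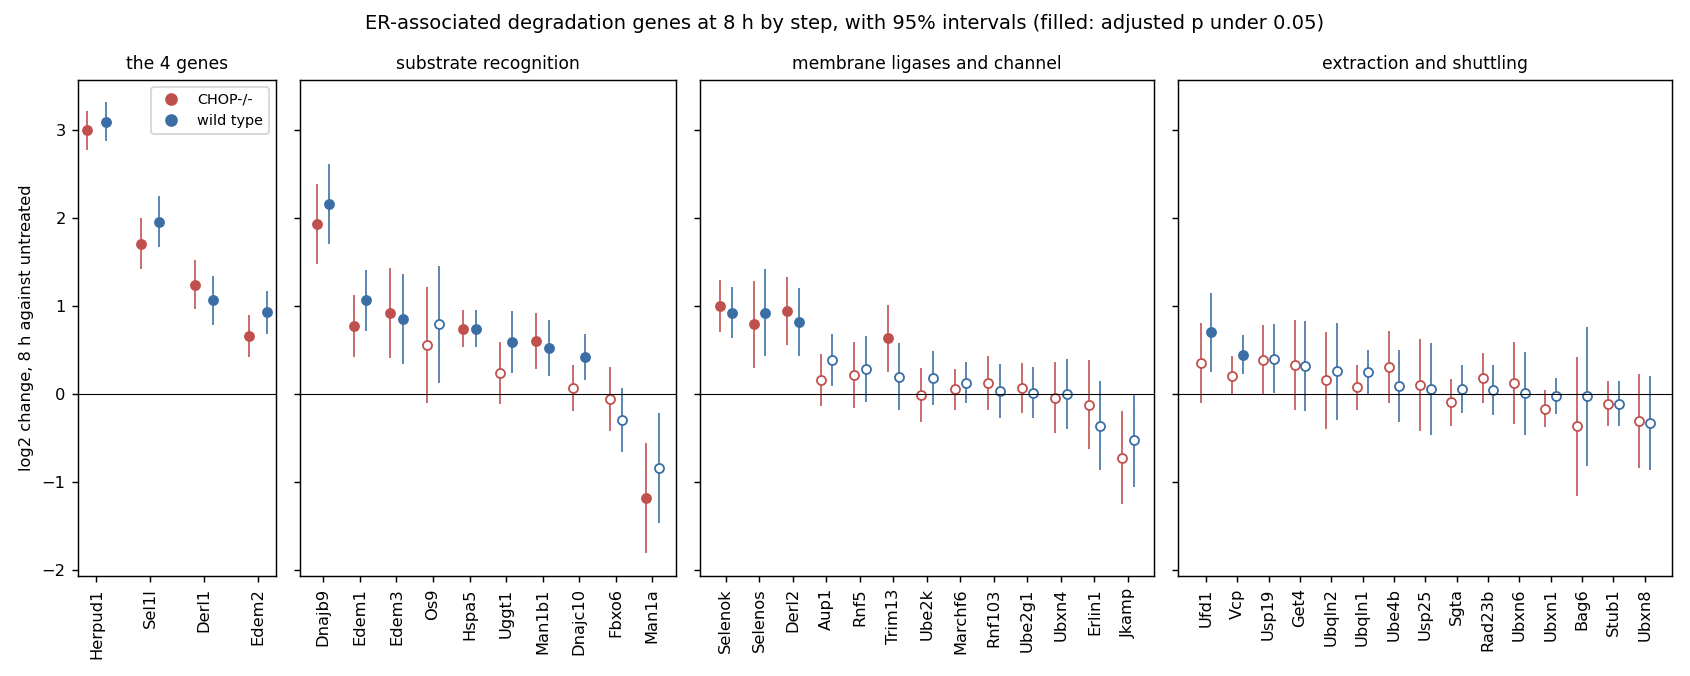
Log2 change at 8 h against untreated cells for the 4 genes and the 38 other degradation genes tested, by step, with 95% intervals; filled points passed an adjusted p under 0.05. CHOP-/- cells are red and on the left of each pair, wild type cells blue and on the right. The 4 genes lie between 0.66 and 3.09, and most extraction and shuttling genes lie near 0.

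Genes on either side of the pathway were counted in the same way, on lists that are not all separate from the pathway lists. Hspa5, for instance, was counted among the recognition genes and again among the chaperones. Of all genes tested, 7.34% were called higher at 8 h in CHOP-/- cells and 9.69% in wild type cells. At 4 h these shares were 0.971% and 1.8%. Of 19 ER chaperones and folding enzymes tested, 14 were called higher at 8 h in CHOP-/- cells and 14 in wild type cells. At 4 h 5 of the 19 were called higher in CHOP-/- cells and 8 in wild type cells. Of 37 proteasome subunits, limma called 0 higher and 1 lower at 8 h in CHOP-/- cells, and 0 in wild type cells, with 3 at an unadjusted p under 0.05 in each. The lower one was Psma5, which fell by 0.43 in CHOP-/- cells (adjusted p = 0.00106) and was named after its value was seen. Beside the shares of all genes called, the proteasome counts are not read as a result about that list. Of 12 sensors and factors of the unfolded protein response tested, 5 were called higher at 8 h in CHOP-/- cells and 6 in wild type cells. Atf6 rose in CHOP-/- cells by 1.10 at 8 h, of which 0.85 came between 4 h and 8 h, and in wild type cells by 1.40, of which 0.92 came between 4 h and 8 h. All of these were called, and Atf6 was named after its values were seen. Atf4 rose in CHOP-/- cells by 0.93 at 4 h and 1.05 at 8 h, and in wild type cells by 0.91 and 0.88. Xbp1 rose in CHOP-/- cells by 0.63 at 4 h and 0.55 at 8 h. In wild type cells Xbp1 rose by 0.49 at 4 h, and its change of 0.31 at 8 h was not called (adjusted p = 0.103).

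The array-by-array patterns of the 4 genes were set beside those of all tested genes by Pearson's r over the 24 arrays, which share 2 genotypes and 3 times, so r describes likeness only. Sel1l and Derl1 were most alike among the members, with r of 0.934. Herpud1 and Edem2 were least alike, with r of 0.583. Herpud1 was most like Atf4 (r 0.965), followed by Piga (0.962), Zfp105 (0.956), Gadd45a (0.942) and Siah2 (0.940). The genes most like Sel1l were Wars (0.959), Wdr74 (0.943), Pdia4 (0.941), Ero1b (0.941) and Rcl1 (0.937). Derl1 was closest to genes of ER folding, Ero1b (0.966), Dnajc3 (0.964), Creld2 (0.954), Dnajb11 (0.946) and Hspa5 (0.938). For Edem2 they were Sec23b (0.940), Nme6 (0.905), Mvd (0.893), Nans (0.889) and Lman2 (0.885).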

How the data were processed

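The authors deposited 1 table of probe set intensities for 24 arrays. From the values, the signals were linear, shared a trimmed mean (2% removed at each end) across arrays, so they were deposited after scaling, and had array medians of 48.2 to 72.6. The sources used here do not give the software behind them. On control probe sets, 3' to 5' ratios were 0.752 to 0.852 for Gapdh and 0.948 to 1.24 for actin. Of 12488 probe sets, 66 were controls, and 10833 others had 1 gene in the gene table supplied for the array, for 8251 genes in all.

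Signals were increased by a pseudocount of 5.7 (their 20th percentile) before log2, so log2 changes understate those of low signals. Values were quantile normalized. Each gene was represented by its probe set of highest mean signal, and genes were tested where their mean log2 value exceeded the 40th percentile (a signal of 28.5), which left 5665. A model of 6 group means on the 24 arrays was fitted in limma 3.58.1 (R 4.3.3), using lmFit and eBayes with trend (18 residual and 5.19 prior degrees of freedom). Two-sided p-values were adjusted by the Benjamini-Hochberg method within each of 12 contrasts. Precision is limited by having 4 arrays per group. On simulated data for 5665 genes, made for wild type 8 h against untreated, 80% of changes of log2 size 1 and 100% of size 2 were recovered, with 7 false calls. Its noise was independent between arrays, so it held no likeness of arrays with the same letter. Response differences were not simulated, and their median SE was 0.267, against 0.189 for that contrast. A second fit took every probe set without a filter, and another took ratios to Herpud1 within an array.

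Per the labels, the array letters are shared by all groups. Residuals of arrays with the same letter correlated above 0.1 for every letter in the 3 wild type contrasts (lowest r 0.250) and in CHOP-/- against wild type at 8 h (lowest r 0.288), and not in the other 5 contrasts between 2 groups. The letter as a block was run as an alternative. Other alternatives were the normalization, the pseudocount, the filter, array weights, only the groups compared, and leaving out arrays.

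The members and all gene lists were chosen with earlier results of these data known. By rule, all probe sets of the members were named, plus up to 4 called pathway genes per contrast and direction with the smallest adjusted p, the partners of the members, Ddit3, Xbp1, Atf4 and Hspa5, and the 5 genes most alike to each member. Psma5, Atf6 and the cell type markers stand outside the rule; Psma5 and Atf6 were named after their values were seen. Promoter sequences came from RefSeq (GRCm38.p6). Plots used matplotlib 3.10.9 and numpy 2.4.6 in Python 3.11.15.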

Additional observations from a re-analysis of the deposited data

Results flagged for a closer look

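In 3 of 36 groups of 4 arrays (6 probe sets in 6 groups), 1 array stood far from the other 3 by Dixon's test, where chance gives about 1 in 20. Edem2 had a signal of 516 on wild type array D at 8 h, against 397.3 to 417.1 on the others. Sel1l on 92870_at had 908.2 on wild type array C at 8 h, against 1094 to 1101. Sel1l on 92871_at had 137.6 on untreated wild type array C, against 80.3 to 86.8.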

How the results depend on the processing

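The rises of all 4 genes at 8 h in both genotypes, of Herpud1 at 4 h, of Sel1l from 4 h to 8 h in both genotypes and of Edem2 from 4 h to 8 h in wild type cells passed the threshold in every setting that changed 1 choice. With only the groups compared, Derl1 at 4 h in wild type cells (0.54), Derl1 from 4 h to 8 h in wild type cells (0.52), Sel1l at 4 h in CHOP-/- cells (0.58), Edem2 from 4 h to 8 h in CHOP-/- cells (0.44) and the Sel1l genotype difference at 4 h (-0.68) lost their calls. Median centring ended the calls of Derl1 at 4 h in wild type cells (0.53) and Sel1l at 4 h in CHOP-/- cells (0.56), and that Sel1l call also ended without further normalization (0.55) and over every probe set (0.57). The removal of wild type arrays A and B, a setting chosen after seeing the data, ended the calls of Derl1 and Sel1l at 4 h in wild type cells (0.58 and 0.77), Derl1 from 4 h to 8 h in wild type cells (0.43), Sel1l at 4 h and Edem2 from 4 h to 8 h in CHOP-/- cells (0.58 and 0.44), Sel1l between genotypes at 4 h and 8 h (-0.59 and -0.52), and the steps of Edem2 and Sel1l beyond Herpud1 in wild type cells (0.93 and 0.98). Differences near 0 changed sign. That of Herpud1 between genotypes at 4 h became 0.019 with median centring, 0.045 without normalization and 0.047 without wild type arrays A and B. That of Derl1 at 8 h became 0.0012 without normalization and 0.10 without those arrays, and the Herpud1 response difference at 8 h became 0.090 without them. The Derl1 step beyond Herpud1 was 0.51 in wild type cells with array weights, then called, and 0.64 in CHOP-/- cells with median centring or no normalization, then not called. Beyond fewer arrays or groups in a fit, the causes were not tested.

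With 1 array left out at a time, the ranges were 0.48 to 0.59 for Derl1 at 4 h, -0.062 to 0.060 for Edem2 at 4 h and 0.46 to 0.58 for Derl1 from 4 h to 8 h in wild type cells. In CHOP-/- cells they were 0.32 to 0.59 for Derl1 at 4 h (called without 4 h array C), 0.47 to 0.68 for Sel1l at 4 h, 0.40 to 0.50 for Edem2 from 4 h to 8 h, and 0.45 to 0.66 for the Derl1 step beyond Herpud1. Between genotypes they were -0.013 to 0.11 for Edem2 untreated, -0.051 to 0.027 for Herpud1 at 4 h, -0.063 to 0.042 for Derl1 at 8 h and -0.68 to -0.55 for Sel1l at 8 h. The response differences were -0.22 to 0.053 for Derl1 at 4 h and -0.036 to 0.17 for Sel1l from 4 h to 8 h. Counts of other degradation genes called were 1 to 3 for 8 h against 4 h in wild type cells, 0 to 2 at 4 h and 3 to 6 for 8 h against 4 h in CHOP-/- cells, and 0 to 2 at 4 h and 1 to 2 at 8 h between genotypes.

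Counts of those genes under other settings were, in wild type cells, 1 at 4 h with median centring or no normalization, and, for 8 h against 4 h, 1 without normalization or with only the groups compared and 5 with array weights. At 4 h in CHOP-/- cells they were 0 without the filter or with only the groups compared and 2 with the replicate block. Between genotypes they were 0 at 4 h with median centring or only the groups compared and 1 without normalization or with array weights, and at 8 h 0 with median centring and 2 with array weights. With wild type arrays A and B left out they were 0, 5 and 0 in wild type cells and 0 between genotypes at 4 h. The replicate block, fitted over all groups, gave 2 between genotypes at 8 h, as did a block over the 8 h groups only, and one over the wild type groups gave 11 for 8 h against 4 h, both added after seeing the data. The block changed no call of the 4 genes. Signals under about 28.5 were not tested, and the 4 genes lay above that.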
